A study of Mus musculus with 270 samples.

Results

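Skeletal muscle of male mice was compared between 20 months (M) of age (n = 7) and 14 M (n = 9), 1 library per mouse, so 16 of the 270 libraries in the 6 organ tables of the series. The mice were wild-type C57BL/6J males from a single cohort that also holds animals of 3, 5, 8 and 26 M, and no group was treated; tissue was collected on consecutive days with the ages spread over them. The sources used here do not name the muscle that was taken, and 1 strain and 1 sex limit the comparison to these animals. The members are 17430 of the 51810 genes in the skeletal muscle table, those that reached 10 normalized counts in 5 or more of its 45 libraries. The question is which transcripts differ across the 6 months in which mice pass from middle to old age.

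A muscle is mostly multinucleated fibres, which contract through isoforms of myosin and take their fuel from glucose and fatty acids. Between the fibres lie fibroblasts, which make the collagen of the interstitial matrix, together with vessels, nerve endings, adipocytes and macrophages. Tenocytes, the cells of the tendon, make its collagen. Muscle of old mice is known for loss of fibre mass and of innervation, and fibres that lose their nerve re-express acetylcholine receptor subunits and other genes of denervation. RNA of a whole muscle mixes all these cells, so fewer cells of a type and less RNA per cell cannot be told apart in any value given here.

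A normalized count is the number of reads on a gene divided by the size factor of its library, and differences are given as log2(normalized count + 1) at 20 M minus 14 M with the standard error (SE) of limma's fit of the 45 libraries. The libraries held 8335341 to 16024299 gene-assigned reads at 14 M and 8598059 to 20108970 at 20 M. The fast fibre myosin Myh4, a marker of skeletal muscle, had a mean of 761100 normalized counts at 14 M and 883800 at 20 M. Of the 16 libraries, 3 had the lowest scores on the first principal component, which held 40.3% of the variance over all 45. In these 3, 14 M replicates 1 and 2 and 20 M replicate 2, the summed transcripts of 11 testis germ cell genes took 455, 500 and 560 parts in 1000000 of the reads, against 3.93 to 47.3 parts in the other 13. Transcripts of lung epithelium, brain, heart muscle and liver were raised in the same 3 libraries. Their heart muscle list summed to 5030, 26333 and 4694 normalized counts, where the other 13 libraries lay between 191 and 472. The 13 respiratory chain genes of mitochondrial DNA are listed at 0 throughout, so they are not described.

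Of the 17430 genes tested, 34 passed an adjusted p of 0.05 (limma, Benjamini-Hochberg), which is 0.195% of all. At 20 M 15 of them were higher (0.0861%) and 19 lower (0.109%). An unadjusted p of at most 0.05 was reached by 984 genes, 5.65% of all. The genes that fell include tenomodulin, fibromodulin and the Col1a2 chain of collagen I of the tendon and interstitial matrix, and Ucp3 of energy metabolism. Those that rose include the glucocorticoid-responsive Fkbp5 and Glul, the calcium pump regulator Sln, the glucose uptake gene Tbc1d4 and the chemokines Cxcl13 and Ccl8.

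The count rested on single libraries. Without 20 M replicate 7 only Gdap1 passed the test (adjusted p = 0.0490, limma), although all 34 genes kept their direction. Of the 34, 24 had in this library their value farthest from the 14 M group, 12 among the higher and 12 among the lower genes. Without 20 M replicate 3 the count was 16, without 20 M replicate 5 it was 19, and without 20 M replicate 1 it was 20. Without 14 M replicate 1, 3, 4 or 8 it was 21 each time and without 14 M replicate 9 it was 22, while without 20 M replicate 4 it was 55. Without the 8 of 45 libraries that exceeded 100 parts of germ cell transcripts in 1000000 it was 39, and 25 of the 34 remained. The other 9, Cilp2, Klhl23, Cacna2d4, Loxl2, Egflam, Ccl8, Col15a1, Deptor and Tuba1a, then had adjusted p-values of 0.0526 to 0.0836 (limma) with the same direction. Of the named genes outside the 34, Cdkn1a, Gadd45a, Chrna1, Chrnb1, Col6a2 and Pi16 passed in that fit (adjusted p = 0.0231 to 0.0401, limma). With only the 16 libraries of 14 and 20 M in the fit it was 2. On the recovered reads edgeR called 14 genes higher and 12 lower and DESeq2 30 and 25, and 24 of the 34 passed in all 3 tools.

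**Figure D1:**
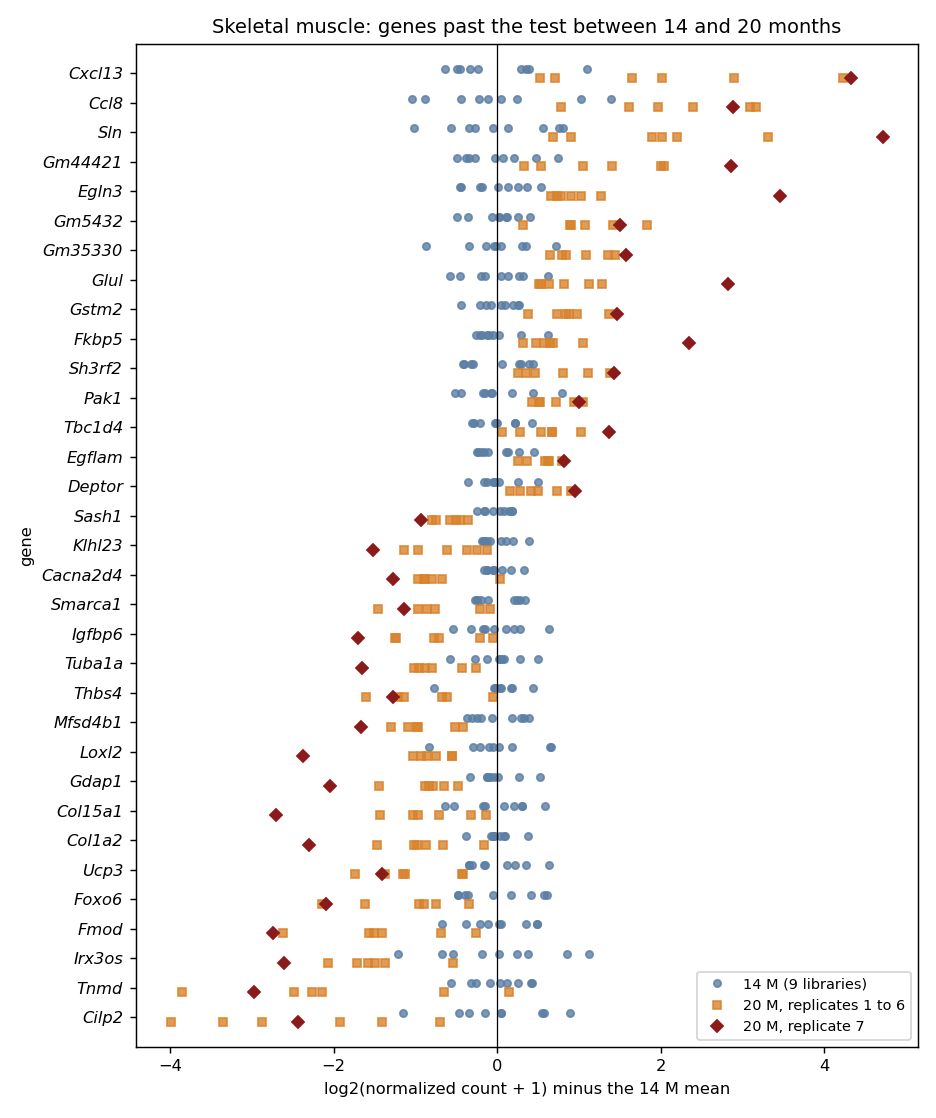
Levels of 33 of the 34 genes that passed the test, on the x axis as log2(normalized count + 1) minus the mean of the 14 M group, 1 point per library (circles, 14 M; squares, 20 M; diamonds, 20 M replicate 7). The diamond lies farthest from the 14 M points in 24 of the 33 genes shown.

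**Figure D2:**
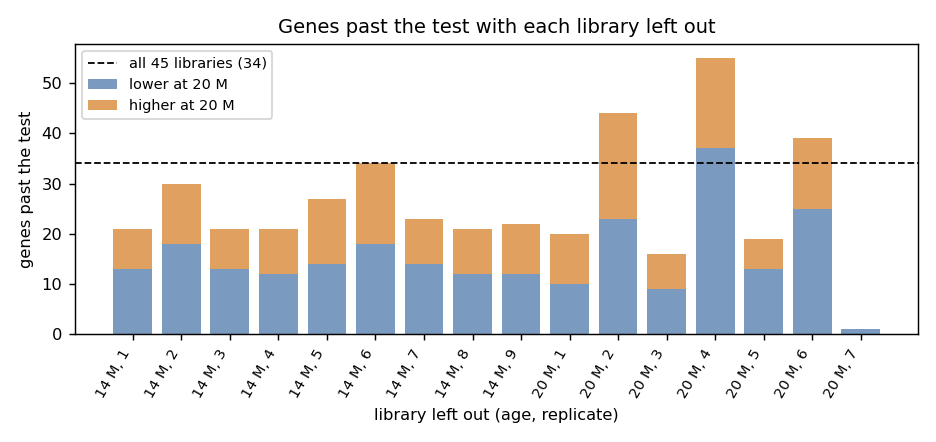
Number of genes that passed the test (y axis) when the library named on the x axis was left out, divided into genes lower and higher at 20 M, with the dashed line at the 34 genes of the full fit. The count runs from 1 without 20 M replicate 7 to 55 without 20 M replicate 4.

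On the tendon, collagen, collagen maturation and basement membrane lists, the genes that passed the test fell. Fmod (chr1:134037254-134048277, GRCm38, as for all gene positions given), which encodes fibromodulin, a small proteoglycan that binds collagen fibrils, had a lowest, median and highest value of 180, 294 and 406 normalized counts at 14 M. At 20 M these were 42.6, 101 and 242. The 14 M range was reached by 20 M replicate 4 alone, and the difference was -1.54 ± 0.28 (SE; adjusted p = 0.00984, limma). Tnmd (chrX:133850980-133865577), a membrane protein that marks tenocytes, ran from 24.8 through 38.1 to 50.1 normalized counts at 14 M. At 20 M it ran from 1.64 through 6.94 to 41.0. The difference was -2.03 ± 0.36 (adjusted p = 0.00984, limma), and 1 library, 20 M replicate 4, lay within the range of the 14 M group. Thbs4, a matrix glycoprotein of tendon and muscle attachments, fell from a median of 794 to 350 normalized counts, with a difference of -0.94 ± 0.19 (adjusted p = 0.0162, limma).

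Col1a2 (chr6:4504814-4541544), the second chain of the main fibrillar collagen, ranged from 1291 to 2186 normalized counts around a median of 1633 at 14 M. At 20 M it ranged from 341 to 1499 around 848. The groups overlapped by 20 M replicate 4 only, and the difference was -1.07 ± 0.20 (adjusted p = 0.0106, limma). Its partner chain Col1a1 had a difference of -0.84 ± 0.21 that did not pass (adjusted p = 0.0987, limma), with medians of 890 and 455 normalized counts. Col6a2 and Col6a1, chains of the beaded collagen around fibres, had differences of -0.90 and -0.84 (adjusted p = 0.0725 and 0.126, limma), and Col3a1 one of -1.05 (adjusted p = 0.123, limma). Loxl2, which crosslinks collagen, fell by 1.01 on the log2 scale (adjusted p = 0.0307, limma). Without 20 M replicate 7, which had the lowest Loxl2 of all 16 libraries at 33.9 normalized counts, the Loxl2 difference was -0.78. Col15a1, a collagen next to the basement membrane, fell by 1.04 (adjusted p = 0.0407, limma). Cilp2, a matrix protein of cartilage-like tissue, fell by 2.38 from a median of only 15.4 normalized counts to 1.94 (adjusted p = 0.0186, limma). Igfbp6, a binding protein of insulin-like growth factors, fell by 0.85 (adjusted p = 0.0466, limma).

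Counted by list, 1 of the 15 fibrillar and beaded collagens passed the test, downward, and all 15 had negative differences with a median of -0.65, where the median of all genes tested was 0.00. Of 28 genes of collagen maturation and matrix, 3 passed, all downward (Fmod, Thbs4 and Loxl2), and the median was -0.40. Of 17 basement membrane genes 1 passed (Col15a1, downward) and the median was -0.35. The difference of Fbn1, the microfibril protein fibrillin, was -0.66, that of the procollagen processing enhancer Pcolce -0.70 and that of the laminin chain Lamb1 -0.75, none past the test. Among the tendon markers 3 of 8 passed, with a median of -0.81, and the tendon proteoglycan Kera had a difference of -2.14 (adjusted p = 0.107, limma).

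The summed level of the 10 tendon markers ran from 1017 to 1680 normalized counts at 14 M around a median of 1384. At 20 M it ran from 415 to 1279, and 6 of the 7 libraries lay below every 14 M library. The difference in mean log2 was -0.96 (exact two-sided permutation test over all assignments of the 16 libraries, p = 0.000350, adjusted over 21 marker lists 0.00734). It was -0.84 without 20 M replicate 7 and -1.03 without the libraries rich in germ cell transcripts, and it passed in each of the 16 fits with 1 library left out. The sum is not separate from the gene tests, since it holds Thbs4, Fmod and Tnmd, which passed singly in the same libraries. Thbs4 alone had means of 790 and 428 normalized counts at 14 and 20 M, where the sum averaged 1374 and 736. Of the 10 markers, Scx and Chad were at 0 in all 16 libraries. The list of fibro-adipogenic progenitors, the interstitial fibroblasts, differed by -0.48, which did not pass (exact permutation test, adjusted p = 0.137). With the mean of the tendon markers as a covariate, a setting added after seeing the data, no gene passed an adjusted p of 0.05 in limma, and 548 had an unadjusted p of at most 0.05. Under this covariate the difference was -1.07 for Ucp3, -0.80 for Gdap1, 0.60 for Gstm2 and 0.47 for both Glul and Fkbp5. The share of tendon in the pieces taken was not measured, and its part in the other differences was not tested.

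**Figure D3:**
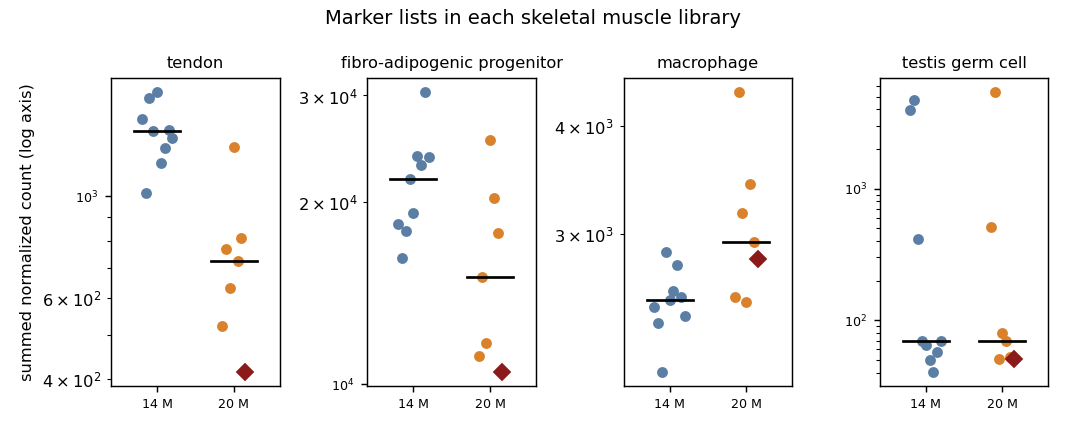
Summed normalized counts (log axis) of 4 marker lists in each library at 14 M (n = 9) and 20 M (n = 7), with the median as a bar and 20 M replicate 7 as a diamond. The tendon list lies lower in 6 of 7 libraries at 20 M, while the testis germ cell list is high in 14 M replicates 1 and 2 and 20 M replicate 2.

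Ucp3 (chr7:100472990-100486432), a mitochondrial carrier of skeletal muscle linked to fatty acid use, had 1051, 1205 and 2074 normalized counts as the lowest, median and highest value at 14 M. At 20 M the values were 401, 600 and 998, so the groups did not overlap, which held for 16 genes or 0.0918% of all. The difference was -1.09 ± 0.22 (adjusted p = 0.0160, limma). Pdk4, the kinase that shuts pyruvate out of oxidation, had medians of 4617 and 2057 normalized counts and a difference of -0.996 ± 0.32, which did not pass (adjusted p = 0.382, limma). The fatty acid binding protein Fabp3 differed by -0.69 (adjusted p = 0.132, limma). Of the 30 fatty acid oxidation genes tested Ucp3 alone passed, and the median was -0.13.

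Tbc1d4 (chr14:101442360-101609191), the insulin-regulated brake and switch of GLUT4 traffic, rose. Its lowest, median and highest values were 625.4, 764 and 1037 normalized counts at 14 M and 808, 1227 and 2000 at 20 M. The lowest 2 libraries of 20 M, replicates 2 and 3, lay within the 14 M range, and the difference was 0.66 ± 0.14 (adjusted p = 0.0236, limma). Of 27 genes of insulin signalling and glucose uptake it alone passed, and 22 of the 27 differences were positive with a median of 0.17. Akt2 and Pik3r1, a kinase and a subunit of the same cascade, differed by 0.48 and 0.39 without passing. Deptor, an inhibitor of mTOR, rose by 0.56 from a median of 1711 to 2478 normalized counts (adjusted p = 0.0407, limma). No glycolytic enzyme of 16 passed, and the median was 0.03; Ldhb, Gpd2 and Pgk1 differed by -0.42, 0.20 and 0.26. No nuclear respiratory chain gene of 83 passed, with 66 of 83 differences negative and a median of -0.13; those of Atp5j, Ndufs4 and Cox7a1 were -0.39, -0.40 and -0.46.

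Glul and Fkbp5 were the members of the glucocorticoid list that rose, 2 of 15, where the median was 0.40 and 13 of 15 differences were positive. Glul (chr1:153899944-153909723), glutamine synthetase, ran from 2433 through 3734 to 5570 normalized counts at 14 M and from 5141 through 6347 to 25599 at 20 M. Its difference was 1.10 ± 0.22 (adjusted p = 0.0170, limma). Fkbp5 (chr17:28399094-28517527), a co-chaperone of the glucocorticoid receptor, ran from 318 through 354 to 585 normalized counts at 14 M and from 473 through 597 to 1932 at 20 M, a difference of 0.87 ± 0.18 (adjusted p = 0.0170, limma). In both genes the highest value came from 20 M replicate 7, and without it the differences were 0.82 and 0.62 (adjusted p = 0.0773 for each, limma). The next members, Gpx3, Klf15 and Mt1, differed by 0.53, 0.40 and 0.51 and did not pass. Tsc22d3, which glucocorticoids also induce, had a difference of 0.10 with a 95% interval from -0.34 to 0.53. Of 17 circadian clock genes none passed, 5 had an unadjusted p of at most 0.05, and Rora and Bhlhe40 differed by 0.28 and 0.50.

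Sln (chr9:53850164-53854560) encodes sarcolipin, which uncouples the calcium pump of the sarcoplasmic reticulum, and it was among the genes with the largest rise. At 14 M its lowest, median and highest values were 4.22, 9.14 and 17.4 normalized counts, and at 20 M 15.9, 41.5 and 276. One 20 M library lay within the 14 M range, and the difference was 2.24 ± 0.46 (adjusted p = 0.0170, limma). Of 27 genes on the denervation and neuromuscular junction list Sln alone passed in limma, while edgeR called 1 member and DESeq2 3. The acetylcholine receptor subunits Chrna1 and Chrnb1 came next, with medians of 102 and 206 normalized counts for Chrna1 at the respective ages and 378 and 591 for Chrnb1. Their differences were 0.93 ± 0.22 and 0.69 ± 0.17 (adjusted p = 0.0624 and 0.0962, limma). In DESeq2 both passed (adjusted p = 0.00536 and 0.0103), and in edgeR neither did (adjusted p = 0.0602 and 0.119). Both passed without the libraries rich in germ cell transcripts (adjusted p = 0.0401 and 0.0398, limma), and neither passed without 20 M replicate 7. The runt factor Runx1, the kinase Musk that clusters the receptor, and the myogenic factor Myog differed by 0.58, 0.41 and 1.09, none past the test, and the subunit Chrnd by 0.25 with a 95% interval from -0.45 to 0.95. The median of the list was 0.15.

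Promoter sequence was read for 24 of the 34 genes, from RefSeq on GRCm38.p6 as the 250 bases before the start. The letters CAGCTG, an E-box of the kind that myogenic factors such as Myog bind and a palindrome that reads alike on both strands, were found in 12.8% of all 27025 promoters. They were present in 3 of 10 promoters of genes that rose and 1 of 14 of genes that fell. The promoters of Glul, which rose, Ucp3, which fell, and Chrna1, the receptor subunit just outside the threshold, are shown because they hold these letters, in capitals. Chrna1 held them at 2 places, and both Glul and Ucp3 at 1. The letters CACGTG were found in 6.05% of all promoters, 2 of 10 and 0 of 14, TATAAA in 13.0%, 2 of 10 and 3 of 14, and the looser CANNTG, which includes both E-boxes, in 66.0%, 7 of 10 and 9 of 14. A match of letters is not evidence that a factor binds there.
Glul, chr1:153899679-153899928, plus strand: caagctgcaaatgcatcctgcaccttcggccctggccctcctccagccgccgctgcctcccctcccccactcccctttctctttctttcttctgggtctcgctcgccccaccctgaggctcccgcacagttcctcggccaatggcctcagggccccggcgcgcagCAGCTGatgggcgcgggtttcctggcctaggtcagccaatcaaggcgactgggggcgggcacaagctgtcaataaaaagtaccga
Ucp3, chr7:100472741-100472990, plus strand: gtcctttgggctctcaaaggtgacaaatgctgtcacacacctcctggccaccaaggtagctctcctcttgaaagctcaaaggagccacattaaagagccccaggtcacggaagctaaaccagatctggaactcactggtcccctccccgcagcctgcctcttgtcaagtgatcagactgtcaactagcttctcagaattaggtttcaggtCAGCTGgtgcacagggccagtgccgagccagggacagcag
Chrna1, chr2:73580339-73580588, minus strand: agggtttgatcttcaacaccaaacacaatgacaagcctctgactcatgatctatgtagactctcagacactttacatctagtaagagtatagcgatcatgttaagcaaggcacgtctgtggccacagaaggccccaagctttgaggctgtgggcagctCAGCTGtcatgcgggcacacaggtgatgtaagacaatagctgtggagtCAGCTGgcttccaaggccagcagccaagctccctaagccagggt

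None of 24 genes of the atrophy programme passed, and 5 had an unadjusted p of at most 0.05, all of them higher. Mstn (myostatin), Foxo4 and Klf15 had its smallest p-values, with differences of 0.45, 0.58 and 0.40, while the ubiquitin ligases Trim63 and Fbxo32 differed by 0.11 and -0.16. Foxo6, a forkhead factor of the same family, fell from a median of 43.1 to 22.4 normalized counts, a difference of -1.26 ± 0.24 (adjusted p = 0.0127, limma). Cdkn1a, the cell cycle inhibitor p21, had 151, 165 and 218 normalized counts as the lowest, median and highest value at 14 M and 174, 338 and 706 at 20 M. Its difference of 0.93 ± 0.23 missed the threshold in limma (adjusted p = 0.0760) and passed it in edgeR (1.05, adjusted p = 0.0340) and DESeq2 (1.05, adjusted p = 0.00262). The stress gene Gadd45a differed by 0.99 and the receptor Eda2r by 0.77. Cdkn2a was near the limit of detection, with means of 5.52 and 7.48 normalized counts. None of the 27 genes of the p53 and senescence list passed in limma, where 3 had an unadjusted p of at most 0.05, while edgeR called 1 of them and DESeq2 2, all higher. Over the whole list 15 differences were positive and 12 negative, with a median of 0.08.

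Gdap1 (chr1:17145362-17164271), a protein of the outer mitochondrial membrane that is mutated in an inherited neuropathy, had the smallest p of all genes. At 14 M its lowest, median and highest values were 620, 734 and 1127 normalized counts, and at 20 M 189, 437 and 559. The groups did not overlap, and the difference was -1.02 ± 0.17 (adjusted p = 0.00621, limma). It passed in all 16 fits with 1 library left out. Gstm2 (chr3:107981702-107986453), a glutathione transferase, ran from 370 through 521 to 608 normalized counts at 14 M and from 655 through 923 to 1392 at 20 M. It rose without overlap by 0.95 ± 0.18 (adjusted p = 0.00984, limma), and with only the 14 and 20 M libraries in the fit it passed as 1 of 2 genes, the other being the acute phase gene Saa3. Saa3 ran from 4.37 to 43.8 normalized counts at 14 M and from 45.5 to 275 at 20 M, and in the fit of all ages its difference was 2.86 ± 0.75 (adjusted p = 0.119, limma). Gstm2 belongs to a family of similar genes, among which reads may be divided imprecisely. Egln3, an oxygen-dependent prolyl hydroxylase, also did not overlap, with 116, 160 and 232 normalized counts at 14 M and 251, 299 and 1754 at 20 M. Its difference was 1.26 ± 0.26 (adjusted p = 0.0177, limma), and 0.89 without 20 M replicate 7.

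Of the remaining genes that passed, the scaffold protein Sash1 and the transporter Mfsd4b1 fell by 0.63 and 0.99 with no overlap between the groups. Klhl23, the calcium channel subunit Cacna2d4, the chromatin remodeller Smarca1 and the tubulin Tuba1a fell by 0.71, 0.78, 0.79 and 0.86. The antisense RNA Irx3os, which overlaps Irx3 on the opposite strand, fell by 1.62 from a median of 23.1 to 6.94 normalized counts. The kinase Pak1, the matrix protein Egflam (pikachurin) and the ubiquitin ligase Sh3rf2 rose by 0.74, 0.58 and 0.83. The long non-coding RNAs Gm35330, Gm5432 and Gm44421 rose by 1.10, 1.13 and 1.46. Adjusted p-values of these 13 genes lay between 0.0170 and 0.04995 (limma). Reads of Irx3os and Irx3 cannot be told apart where they overlap, since strand-aware counting is not stated.

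Chemokines gave the highest fold changes among the genes that rose. Cxcl13 (chr5:95956951-95961068), which attracts B cells, had 26.8, 35.9 and 91.4 normalized counts as the lowest, median and highest value at 14 M and 60.9, 174 and 863 at 20 M. In 2 libraries of 20 M, replicates 4 and 6, it lay within the 14 M range. The difference was 2.33 ± 0.44 (adjusted p = 0.00984, limma). Ccl8 (chr11:82115185-82116799), a ligand for monocytes and T cells, ran from 1.75 through 4.24 to 13.8 normalized counts at 14 M and from 8.70 through 28.6 to 49.7 at 20 M. Its difference was 2.27 ± 0.51 (adjusted p = 0.0388, limma). Its call was kept in 3 of the 16 fits with 1 library left out. That was also so for Tuba1a, at a 14 M median of 146 normalized counts. Il1b had no more than 4.22 normalized counts at 14 M and at least 4.62 at 20 M (2.21, adjusted p = 0.114, limma). Of 28 chemokines, cytokines and receptors tested, Cxcl13 and Ccl8 passed in limma and the median was 0.14, while edgeR called 1 member and DESeq2 3.

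None of 34 interferon response genes passed, and 3 had an unadjusted p of at most 0.05. Ifit3b, Rsad2 and Slfn4 differed by -0.79, 0.79 and 1.47, and 25 of the 34 differences were positive with a median of 0.14. Of 20 genes of complement and antigen presentation none passed, with differences of 0.54 for H2-Aa, 0.49 for Ctss and -0.39 for Serping1. The 16 macrophage markers summed to 2085 to 2866 normalized counts at 14 M and 2505 to 4367 at 20 M, a difference of 0.29 that did not pass (exact permutation test, p = 0.00769, adjusted p = 0.0808). Its members Ctss, Mpeg1 and Lyz1 differed by 0.49, 0.64 and 0.67. The highest of these sums, 4367, was that of 20 M replicate 2, a library rich in germ cell transcripts. The sum of the B and plasma cell list differed by 0.11 and that of T cells by 0.08 (exact permutation test, adjusted p = 0.887 and 0.891). All 8 B and plasma cell genes tested had positive differences, with a median of 0.50. The 7 T cell genes tested had 4 positive and 3 negative ones, with a median of 0.01. Defining B cell and T cell genes were low, with Cd79a at a median of 29.1 and 43.1 normalized counts and Cd4 at 8.72 and 20.8.

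**Figure D4:**
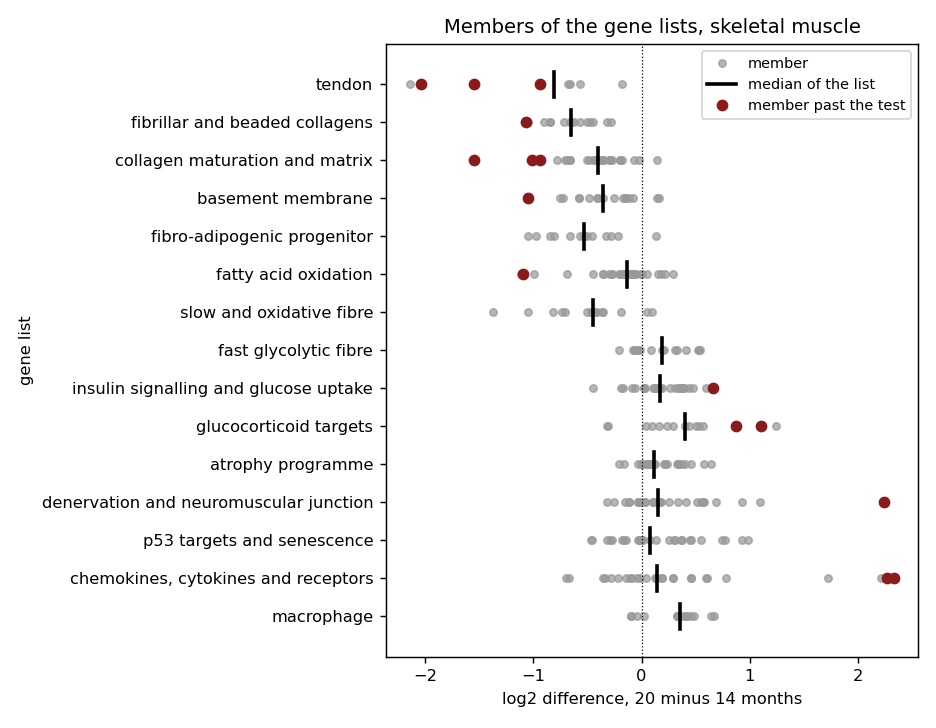
Log2 difference of 20 minus 14 M (x axis) for each tested member of 15 gene lists, with genes past the test in dark red, the median of each list as a bar and the median of all genes as a dotted line. The medians of the tendon and fibrillar collagen lists, -0.81 and -0.65, lie farthest to the left, and most members of every list did not pass.

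Of the 4 adult myosin heavy chains none passed. Myh4 differed by 0.21, Myh1 by 0.54, Myh2 by -0.48 and the slow Myh7 by -0.41, and the mean of Myh7 was 440 normalized counts at 14 M and 291 at 20 M. The summed slow and oxidative fibre list ran from 13892 to 27578 normalized counts at 14 M and from 12592 to 19180 at 20 M, a difference of -0.40 that did not pass (exact permutation test, adjusted p = 0.137). Of the libraries with transcripts of other organs, 14 M replicate 2 had a sum of 25986. In 14 M replicate 1 and 20 M replicate 2 the sums were 14344 and 14976. Its members Csrp3, Mb and Ankrd2 differed by -1.37, -0.43 and -0.82. Of the fast glycolytic list, Actn3, Atp2a1 and Mybpc2 differed by 0.52, 0.53 and 0.33, and its sum differed by 0.17 (exact permutation test, adjusted p = 0.323). Its 15 genes had 9 positive and 6 negative differences, with a median of 0.19. Acta1 and Ryr1 of the general fibre list differed by 0.46 and 0.25. Of 22 genes of calcium handling Sln alone passed, with Orai1 and Cacnb1 at -0.62 and 0.45. Of 27 muscle transcription factors none passed, and Myf6, Tbx15 and Prox1 differed by 0.58, 0.40 and -0.72. Prox1 had its highest values in the libraries with transcripts of other organs, 14 M replicates 1 and 2 and 20 M replicate 2 (83.3, 136 and 63.4 normalized counts). The satellite cell genes Pax7, Chodl and Cdh15 differed by -0.74, -0.40 and 0.32.

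Of 24 genes of polyamine metabolism, which makes spermidine and spermine, none passed, and 4 had an unadjusted p of at most 0.05. Amd1, the decarboxylase that supplies aminopropyl groups, had medians of 7547 and 5195 normalized counts and a difference of -0.61 ± 0.17 (adjusted p = 0.157, limma). Its near copy Amd2 differed by -0.87 and shares reads with Amd1, so the split between them is uncertain. Odc1, the first enzyme of the pathway, differed by -0.22 with a 95% interval from -0.55 to 0.10. Smox differed by -0.11 with an interval from -0.63 to 0.41, and the polyamine transporter Atp13a3 by 0.74.

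The remaining lists held no gene past the test in limma or edgeR, and in DESeq2 1 adipocyte gene passed. Among 22 immediate early genes Myc, Egr1 and Jun differed by 0.56, -0.65 and -0.43, and among 28 genes of heat shock and proteostasis Xbp1, Dnaja1 and Ddit3 differed by 0.35, -0.36 and -0.25. Of 75 cytosolic ribosomal proteins, Rps4x, Rps15a and Rpl10 differed by 0.27, 0.47 and 0.34, while 44 differences were positive and 31 negative with a median of 0.04. Of the adipocyte genes, the hormone leptin (Lep) had a median of 311 normalized counts at 14 M and 59.2 at 20 M, a difference of -1.97 ± 0.50 that did not pass (adjusted p = 0.0987, limma), while Cidea and Cfd differed by 0.72 and 0.38 and the sum of the list by -0.10 (exact permutation test, adjusted p = 0.887).

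Other cells gave differences that did not pass. For vessels these were -0.33, -0.41 and -0.46 in Tek, Vwf and Egfl7 of endothelium and -0.27, 0.25 and -0.24 in Rgs5, Abcc9 and Kcnj8 of mural cells. Of the 10 endothelial genes 4 had positive differences, the median was -0.12 and the sum differed by -0.08 (exact permutation test, adjusted p = 0.658), and of the 10 mural genes 4 were positive, with a sum that differed by -0.01 (adjusted p = 0.918, exact permutation test). For Schwann cells they were -0.59 and -0.48 in Egfl8 and Mbp. Mbp was highest in the libraries with transcripts of other organs, at 959 and 2106 normalized counts in 14 M replicates 1 and 2. In 20 M replicate 2 it was 1021, while the other libraries lay between 170 and 363. Blood genes were higher on average and varied widely, with Hba-a1, Slc4a1 and Hba-a2 at 1.18, 1.31 and 0.98, and the erythroid sum ran from 275 to 4744 normalized counts at 20 M against 295 to 1808 at 14 M. Among neutrophil genes Cxcr2, S100a9 and Csf3r differed by 1.41, 0.66 and 0.20, among T cell genes Cd4, Cd3g and Cd3e by 0.85, 0.59 and -0.20, and among B cell genes Igha, Cd79a and Mzb1 by 0.95, 0.58 and 0.39. The fibroblast genes Pi16 and Col3a1 differed by -0.97 and -1.05. Of the keratinocyte genes Trp63, Krt10 and Dsp differed by 0.54, -0.36 and 0.20, and Krt5 and Krt14 were too low to be tested. The heart muscle genes Myl4, Myh6 and Nppa differed by 0.34, -0.89 and -0.95. The liver genes Ahsg, Ttr and Serpina1a differed by -0.46, -0.39 and -0.32. All of these but Myl4 had their highest values in the libraries with transcripts of other organs. Myl4 was highest in 14 M replicate 2 (251 normalized counts). Its value in 20 M replicate 4 (94.4) exceeded those in 14 M replicate 1 (67.9) and 20 M replicate 2 (82.5).

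At the other ages, 33 of the 34 genes lay at 26 M on the same side of the 14 M mean as at 20 M, Sash1 being the exception. These values share the 14 M or 20 M libraries with the main comparison. Because the 34 genes were chosen for their distance from that 14 M mean, a high count on the same side was partly built in. Between 8 and 14 M none of the 34 passed in the same fit, and between 20 and 26 M none passed. Between 14 and 26 M, where n = 5, the genes Gdap1, Sln, Egln3 and Pak1 passed. The shares of all genes that passed in these comparisons are not given here, so these counts say nothing particular about the 34 genes. Sln was 5.24, 10.3, 10.4 and 10.4 normalized counts on average at 3, 5, 8 and 14 M, 77.2 ± 92.3 (SD, n = 7) at 20 M and 82.3 ± 25.8 (SD, n = 5) at 26 M. Gdap1 averaged 793 ± 151 (SD, n = 9) at 14 M, 407 ± 127 (SD, n = 7) at 20 M and 438 ± 107 (SD, n = 5) at 26 M, and 680 to 787 at the 3 younger ages. Fmod averaged 117 ± 71.6 (SD, n = 7) at 20 M and 215 ± 102 (SD, n = 5) at 26 M, between the 299 ± 80.0 (SD, n = 9) of 14 M and the 20 M mean. Fkbp5 averaged 387 ± 85.9 (SD, n = 9), 784 ± 515 (SD, n = 7) and 435 ± 159 (SD, n = 5) at 14, 20 and 26 M.

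**Figure D5:**
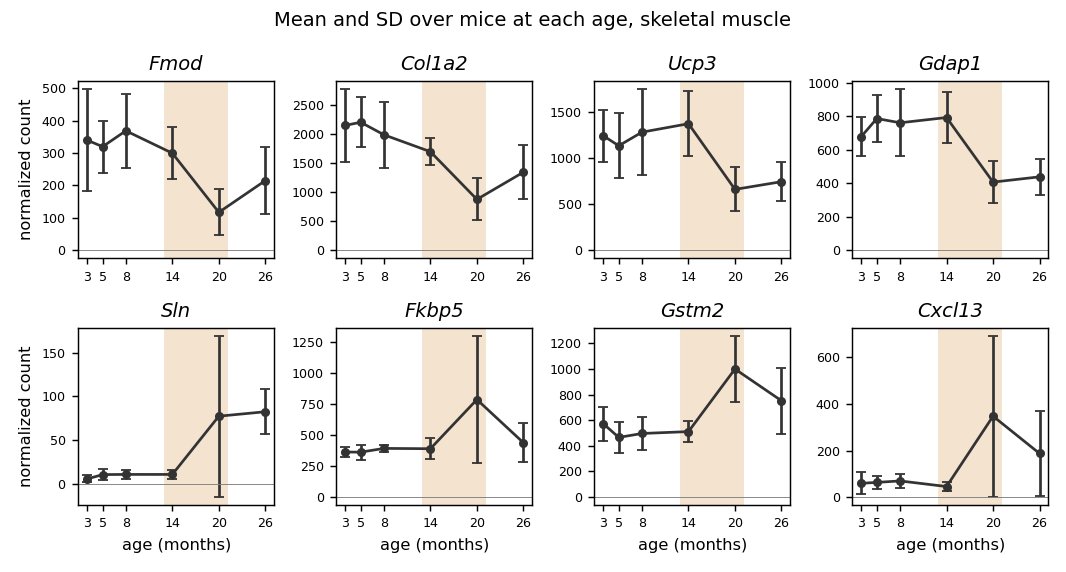
Mean normalized count (y axis) with SD over mice at each age (x axis, months) for 8 genes in skeletal muscle, with the compared ages shaded (n = 7, 9, 8, 9, 7 and 5 mice from 3 to 26 M). Sln averages 77.2 at 20 M and 82.3 at 26 M, while Fkbp5 averages 784 at 20 M and 435 at 26 M with an SD of 515 at 20 M.

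The same contrast within the tables of other organs, each normalized on its own and from the same mice, gave the following values for these 34 genes. In heart, where 0.12% of 15842 genes passed in limma, none of the 31 that were tested passed, and Ucp3 differed by -1.23 and Cxcl13 by 1.98. In kidney, where 22.7% of 16839 genes passed, 11 of 30 did, 4 in the direction seen in muscle and 7 in the opposite one. Cxcl13 and Ccl8 were higher at 20 M in kidney as well, by 3.75 ± 0.46 and 3.87 ± 0.55. Col1a2, Col15a1 and Loxl2, lower in muscle, were higher in kidney by 2.11, 1.49 and 1.97, and Glul, higher in muscle, was lower there by 0.75. In lung and in testis, where 32 and 27 of the 34 genes were tested, no gene passed in limma. Cxcl13 differed by 1.21 and 1.61 there and Ccl8 by 0.38 and 1.69.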

How the data were processed

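RNA of skeletal muscle from 45 male mice was enriched with oligo-dT beads, amplified by PCR without molecular identifiers and sequenced as single reads, so PCR copies were counted as reads. The authors aligned trimmed reads to GRCm38 (mm10) with HISAT2 2.1.0 and a forward strand setting and counted them on Ensembl genes; whether counting used strand is not given in the sources used here. The deposited values are a signal: read counts scaled by the size factors of DESeq2, organ by organ. All values (100%) were whole multiples of 1 step per library (tolerance 0.01 reads), which gave back the reads.

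The genes kept were tested on log2(value + 1), which understates changes of low genes, with limma 3.58.1 (trended prior, 6 age groups, two-sided, Benjamini-Hochberg at 0.05). Alternatives included edgeR 4.0.16 and DESeq2 1.42.0 on the recovered reads. Marker lists were summed per library and tested by exact permutation. Named are all genes past the test, the 3 members with the smallest p of each list with none, and a fixed set of senescence, collagen, polyamine, fuel and myosin genes; other genes named were chosen after their values were seen. The testis, lung and brain lists were added after seeing the data, and members and lists were chosen with earlier results of these data known. Positions are from GENCODE on GRCm38. The steps were tested on simulated data. The liver table was not used here. Some results are not reported here.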

Additional observations from a re-analysis of the deposited data

Results flagged for a closer look

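In 24 of 274 groups of named genes 1 library lay apart from the rest by Dixon's test on the log2 scale, a test that chance meets in about 1 group in 20. At 20 M replicate 7 was the highest for Glul (25599 normalized counts, group median 6347), Fkbp5 (1932, median 597), Egln3 (1754, median 299) and Pik3r1 (2696, median 843). The same library was the lowest for Loxl2 (33.9, median 98.9), Col6a1 (95.9, median 343), Tek (313, median 452), Vwf (75.5, median 227) and Cd3e (46.5, median 78.2). Its depth of 12597487 reads lay within the range of its group.

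At 20 M replicate 2, which carried transcripts of other organs, was the highest for Myh6 (2223, median 79.4), Nppa (69.4, median 0.97), Ahsg (191, median 25.2), Ttr (352, median 38.7), Mbp (1021, median 229) and Prox1 (63.4, median 23.3). At 14 M replicate 2, another such library, was the highest for Myl4 (251, median 47.2) and the lowest for Thbs4 (453, median 794) and Pgk1 (2815, median 5507). The other single values were Myh7 in 20 M replicate 1 (37.0, median 304), Rsad2 in 20 M replicate 5 (607, median 243), H2-Aa and Egfl8 in 14 M replicate 3 (158, median 296, and 2.91, median 10.4), and Egr1 and Cd3e in 14 M replicate 8 (794, median 271, and 25.3, median 103).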

How the results depend on the processing

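No paired analysis was possible because each mouse has 1 age. The 34 genes became 2 with only the libraries of 14 and 20 M, 14 with quantile normalization, 16 with the slow fibre list as a covariate, 55 with DESeq2, 64 with a covariate for 2 sets of mice (the sign of the first component of the heart table) and 111 with array weights. Added after seeing the data, the germ cell list as a covariate gave 55 and the tendon list as a covariate 0. The tendon list holds genes that passed in the same contrast, so part of that loss was built in. Leaving out each library gave 1 to 55. edgeR called 14 genes higher and 12 lower and DESeq2 30 and 25, so the share of higher genes rose from 44.1% to 53.8% and 54.5%; 24 of the 34 passed in limma, edgeR and DESeq2 alike. Pseudocount, filter, the suffix b of 1 library name, depth, adipocyte list and robust settings gave counts within 1.5 times. That suffix is carried by 8 M replicate 7 alone, outside the ages compared, so this covariate could act only through the shared spread. No named gene reversed as a call in 4480 values, 328 lost a call and 62 gained one. Only genes among the 34 could lose a call, so the 328 losses fall on a smaller number of values than 4480. Of the marker lists the keratinocyte sum passed (0.60) without the libraries rich in germ cell transcripts, and with each library left out it ran from 0.35 to 0.52, that of macrophages from 0.20 to 0.34 and that of fibro-adipogenic progenitors from -0.61 to -0.39; these passed without 14 M replicate 2 (keratinocyte), 20 M replicate 1 or 4 (macrophage) and 20 M replicate 4 (progenitors). Most of the keratinocyte sum was Trp63, with means of 313 and 459 normalized counts at 14 and 20 M, where the sum averaged 389 and 510. The causes were not tested. Depth limits Cilp2, Ccl8, Il1b and Cdkn2a, at a few normalized counts per library in 1 or both groups.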
